A study of Mus musculus with 6 samples.

Results

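The genes described here build and crosslink collagen fibrils: *Col2a1* and *Col5a2*, which encode chains of fibril-forming collagens, *Col12a1* and *Col16a1*, which encode chains of fibril-associated collagens, and *Lox*, which encodes the enzyme lysyl oxidase. They are 5 of the 312 genes in the deposited table. The 5 genes were chosen by their higher values in infant (P6) than in adult (P56) libraries, so the difference between the ages is given as a description and was not tested. The libraries came from C57BL/6 mice, an inbred laboratory strain with no engineered allele and, for these samples, no treatment. P6 mice were 6 days old after birth and P56 mice 56 days, with 3 libraries at each age. The labels name the material as adipose tissue macrophages, while the study's methods name inguinal fat depots. The sex of the mice, pooling of animals and separate litters are not given for these libraries, so the spread between them may be partly technical.

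Collagens are built from chains that wind around each other in a helix, for which glycine must recur at a fixed short step along the chain. Types II and V assemble into fibrils, type II mainly in cartilage and the eye and type V inside the type I fibrils of skin, tendon and the stroma of fat. Types XII and XVI do not form fibrils on their own, and type XII is known to bind the surface of type I fibrils. Lysyl oxidase acts outside the cell, where it oxidises lysines of collagen and elastin so that neighbouring molecules become covalently linked. In fat, fibroblasts, preadipocytes and the cells of vessel walls are known producers of fibrillar matrix, and macrophages are known more for its uptake and remodelling.

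The difference in chain structure can be read from the coding sequence. Per gene, the longest transcript with a complete coding sequence was read from the GENCODE annotation of GRCm38. There the longest run of triplets of codons that each open with a glycine codon (GGN) was 339 triplets in *Col2a1* and 339 in *Col5a2*. It was 32 triplets in *Col12a1*, of 3065 codons, and 52 in *Col16a1*, of 1580 codons. *Col16a1* held 290 such triplets in 14 separate runs of at least 10, and *Col12a1* held 78 in 4 runs. *Lox* had no run of at least 10. Of 21509 coding genes, 64 (0.298%) had a run of at least 20 triplets. The first 10 triplets of the longest run in *Col16a1*, codons 1006 to 1035, are printed to show the repeat, with the glycine codons in capitals.

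Col16a1 coding: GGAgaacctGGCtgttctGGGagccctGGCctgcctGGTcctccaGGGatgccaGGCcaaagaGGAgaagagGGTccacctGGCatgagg

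A promoter entry was read for 1 of the 5 genes, *Col16a1*. The search left out the entries on a chromosome, so it does not show that the other genes had none. The RefSeq promoter table places it on GRCm38.p6 at chr4:130047590-130047889 on the plus strand, 250 bases before and 50 after the annotated start. No source names the build behind the counts. Capitals mark the matches on either strand to the CCAAT box (CCAAT, 1 match) and to the GC box (GGGCGG, 2 matches, 1 on each strand), which do not overlap. The TATA box (TATAAA) and the SMAD-binding element (CAGAC) had no match in this window. Over all 32851 promoters of the table, 37.4% held CCAAT, 35.7% GGGCGG, 13.6% TATAAA and 49.6% CAGAC. The sequence is shown because *Col16a1* was the only one of the 5 genes with an entry in this search. Its part in the levels was not tested.

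Col16a1 promoter: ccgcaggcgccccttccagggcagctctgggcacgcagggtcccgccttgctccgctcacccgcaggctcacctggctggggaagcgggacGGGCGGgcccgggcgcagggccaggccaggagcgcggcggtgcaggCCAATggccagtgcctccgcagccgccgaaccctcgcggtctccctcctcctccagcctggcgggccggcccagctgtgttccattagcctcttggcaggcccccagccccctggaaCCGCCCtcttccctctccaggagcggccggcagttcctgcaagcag

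Each library was given as estimated read counts, TPM (transcript abundance corrected for length and scaled to a common total) and FPKM (fragments scaled by transcript length and library total). The listed genes are a selection that held between 2.30% and 2.69% of the TPM of a library, so their sum is not the depth of a library, and relative depth was recovered by dividing counts by FPKM in 196 genes. It ranged from 1.09 to 1.16 at P6 and from 0.795 to 0.937 at P56, relative to the mean of the 6 libraries. P56 replicate 3 had the least depth and stood apart from the other P56 libraries, with a median TPM of 0.823 times their mean over 295 genes. At the recovered depth, 94 of 310 tested genes (30.3%) were higher at P6, 105 (33.9%) were lower and 199 (64.2%) differed in either direction, at an adjusted *p* under 0.05 from edgeR's quasi-likelihood test. The table is labelled as differentially expressed genes, so these shares describe a selected list and not the transcriptome. That list may have been chosen on these same libraries, so the adjusted *p* of single genes given below is no independent support. With equal library sizes the split was 148 higher and 34 lower. In 84 of the 312 genes (26.9%) the lowest P6 TPM exceeded the highest P56 TPM. So it did in the 5 genes described here, where the choice of the genes fixed this direction. In bulk RNA, fewer cells of a type and less RNA per cell cannot be told apart.

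The fibril-forming chains stood at the top and the bottom of the levels of the 5 genes. *Col5a2* (gene ID 12832), a chain of type V collagen, had 437, 433 and 451 TPM at P6 and 382, 359 and 278 TPM at P56. It was the most abundant of the 5 genes at both ages, and its lowest P6 library lay 1.13 times above its highest P56 library. The mean was 440.5 ± 9.50 TPM at P6 and 339.8 ± 54.4 TPM at P56 (SD, n = 3), which ranked 12th and 15th among the 312 genes. Scaled to the recovered depth, it had 21610 ± 777 counts at P6 and 15282 ± 1871 at P56 (SD, n = 3), a ratio of 1.41. The ratio of single libraries at the recovered depth ran from 1.27 to 1.71 over the 9 pairs of a P6 with a P56 library. The fitted log2 difference (P6 over P56) was 0.50 with a standard error of 0.09, the smallest of the 5 genes. It was 0.40 without P56 replicate 3.

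*Col2a1* (gene ID 12824), the chain of type II collagen, had 2.28, 1.53 and 1.98 TPM at P6 and 0.07, 0.03 and 0.00 TPM at P56. These values rest on 96, 62 and 88 reads at P6 and on 2, 1 and 0 reads at P56. The 95% exact Poisson interval was 47.5 to 79.5 counts for the lowest P6 library and 0.242 to 7.22 counts for the highest P56 library. For the library with 0 reads this interval was 0 to 3.69 counts. All intervals cover counting error only and are no test of the ages. *Col2a1* ranked 299th of 312 in mean TPM at P6 and 312th at P56, so the gene with the widest difference was also among the scarcest in the table. The summed counts of 246 and 3 correspond, at the recovered depth, to a 63.5-fold difference with a 95% exact interval from 21.5 to 310.3. The fitted log2 difference of 5.84, the highest of the 310 tested genes, depends on the prior count at such low values. Leaving out P56 replicate 3 gave 5.37. Leaving out P56 replicate 1 gave 6.66, and this is the library that holds 2 of the 3 adult reads. None of 19 cartilage markers set beside it, among them *Sox9*, *Acan*, *Matn1* and *Col9a1*, was among the 312 genes.

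**Figure D1:**
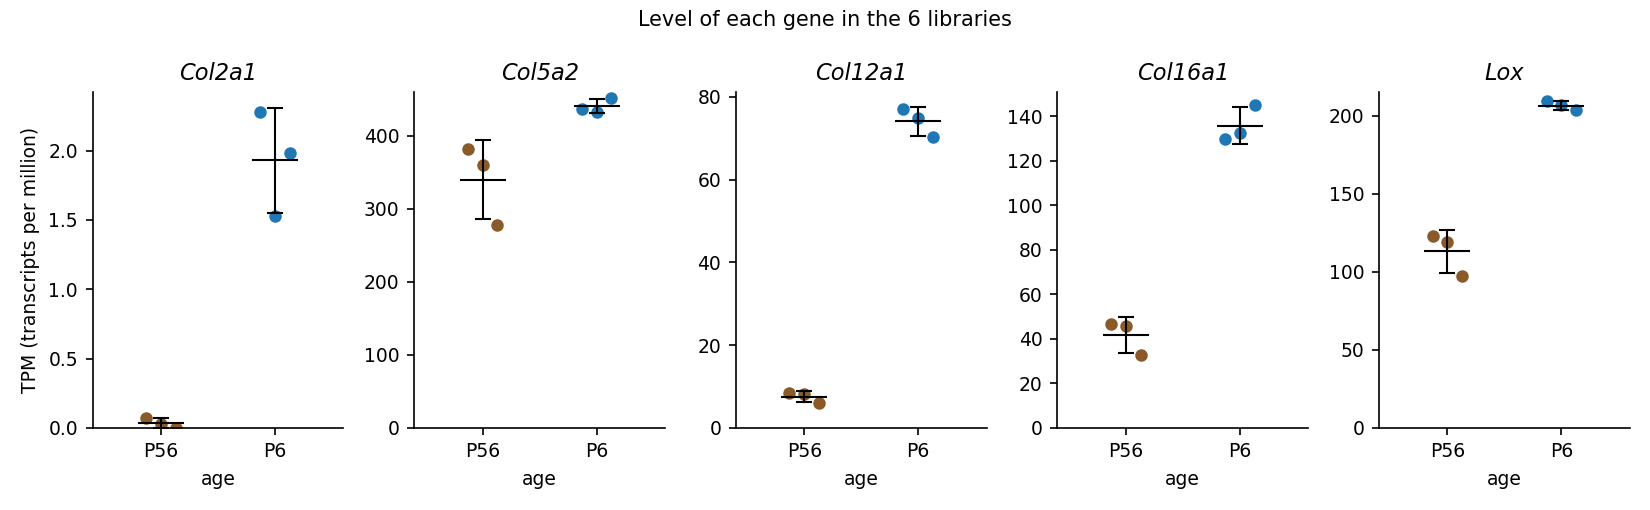
TPM of each gene (vertical axis, from 0) in the P56 and P6 libraries (horizontal axis), with points for libraries and black bars for the mean ± SD of 3 libraries, not drawn below 0. The P6 points lie above the P56 points in every panel, from 1.53 against 0.07 TPM in *Col2a1* to 433 against 382 TPM in *Col5a2*.

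Among the fibril-associated collagens, *Col12a1* (gene ID 12816), which encodes the chain of type XII collagen, had 77.2, 74.9 and 70.3 TPM at P6 and 8.44, 8.25 and 5.92 TPM at P56. The lowest P6 library was 8.33 times the highest P56 library. The mean was 74.1 ± 3.49 TPM at P6 and 7.54 ± 1.40 TPM at P56 (SD, n = 3), and its rank in the table moved from 59th at P6 to 252nd at P56. At the recovered depth the ratio of the means was 10.6 and the 9 pairs of libraries gave ratios from 9.60 to 12.6. The fitted log2 difference was 3.41 with a standard error of 0.11, which placed it 3rd among the tested genes. It was 3.31 without P56 replicate 3.

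*Col16a1* (gene ID 107581), which encodes the chain of type XVI collagen, had 129.7, 132 and 145 TPM at P6 and 46.8, 46.0 and 32.6 TPM at P56. The groups did not overlap, and P6 replicate 3 was the highest and P56 replicate 3 the lowest library. The mean was 136 ± 8.32 TPM at P6 and 41.8 ± 7.96 TPM at P56 (SD, n = 3). The ratio at the recovered depth was 3.55, and the 9 pairs of libraries gave ratios from 3.06 to 4.71. The fitted log2 difference was 1.83 with a standard error of 0.12, and it was 1.70 without P56 replicate 3. Its promoter and glycine repeat are printed above.

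The crosslinking enzyme was the least variable of the 5 among the infant libraries. *Lox* (gene ID 16948) had 209.6, 207 and 204 TPM at P6 and 123, 119 and 97.4 TPM at P56. The P6 libraries were close together and all above the P56 libraries, of which replicate 3 was the lowest. At the recovered depth the P6 libraries had 7394 ± 46.3 counts (SD, n = 3), a coefficient of variation of 0.626%, where counting error alone gives 1.10%. At P56 it was 3729 ± 326 counts (SD, n = 3), a coefficient of variation of 8.73% against 1.75% from counting. The ratio of the means was 1.98 and the 9 pairs of libraries gave ratios from 1.86 to 2.22. The fitted log2 difference was 0.99 with a standard error of 0.09, and 0.92 without P56 replicate 3.

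Relative to the mean, the spread was wider among the adult than among the infant libraries for each of these genes. For *Col5a2*, *Col12a1* and *Col16a1* the coefficient of variation at the recovered depth was 3.59%, 2.58% and 7.77% at P6 and 12.2%, 12.4% and 15.5% at P56. Counting error gives 0.641%, 1.28% and 1.30% at P6 and 0.863%, 4.72% and 2.77% at P56. For *Col12a1* and *Col16a1* the wider adult spread rests on P56 replicate 3. P56 replicates 1 and 2 had 549.7 and 546 depth-scaled counts of *Col12a1*, and 1613 and 1607 of *Col16a1*, closer together than the P6 libraries were. That is closer than the counting error of 4.72% and 2.77%, so P56 replicates 1 and 2 do not show which age varied more. All 5 genes had their lowest P56 TPM in replicate 3, as did 257 of all 312 genes (82.4%). In that library the TPM was 0.703 times the mean of the other P56 libraries for *Col16a1*, 0.709 times for *Col12a1*, 0.751 times for *Col5a2* and 0.804 times for *Lox*. These lie below the median of 0.823 over 295 genes. The genes were chosen for lower values at P56, which favours low values in this library, so their place below the median is no finding. What sets this library apart was not tested.

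The order of the levels was the same at both ages: *Col5a2*, *Lox*, *Col16a1*, *Col12a1* and *Col2a1*, from the highest TPM to the lowest. No neighbours in this order had overlapping ranges at either age. The distances between them changed. Ratios taken within a library do not depend on how libraries are scaled, since a common factor cancels. *Col12a1* stood at 0.177, 0.173 and 0.156 of the *Col5a2* TPM in the P6 libraries and at 0.0221, 0.0230 and 0.0213 in the P56 libraries. The mean of this ratio was 7.62 times higher at P6, and the groups did not overlap. *Col16a1* stood at 0.297, 0.306 and 0.322 of *Col5a2* at P6 and at 0.123, 0.128 and 0.117 at P56, which is 2.51 times higher at P6. *Lox* stood at 0.480, 0.478 and 0.451 of *Col5a2* at P6 and at 0.322, 0.332 and 0.350 at P56. This ratio was 1.40 times higher at P6.

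**Figure D2:**
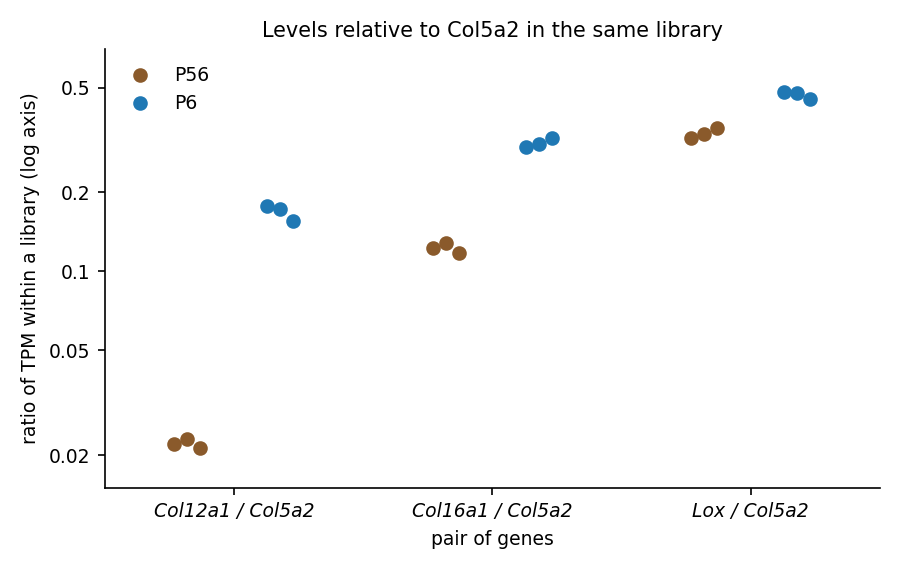
Ratio of the TPM of *Col12a1*, *Col16a1* and *Lox* to the TPM of *Col5a2* in the same library (log axis), for the 3 P56 and the 3 P6 libraries, each a point. The gap between the ages is widest for *Col12a1* (0.0213 to 0.0230 against 0.156 to 0.177) and narrowest for *Lox* (0.322 to 0.350 against 0.451 to 0.480).

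The fibril-associated collagens also differed from each other. *Col12a1* had 0.180, 0.180 and 0.181 of the *Col16a1* TPM in the P56 libraries. This spread was narrower than that of either gene, as P56 replicate 3 was low in both by a like factor. It was also narrower than counting error at P56, which was 4.72% for *Col12a1* and 2.77% for *Col16a1*. The counts cannot resolve agreement this close, so no tight relation is read from it. At P6 the ratio was 0.595, 0.565 and 0.484, and its mean was 3.04 times higher. The *Lox* TPM was 1.40 to 1.62 times that of *Col16a1* at P6 and 2.60 to 2.99 times at P56. It was 2.72 to 2.89 times that of *Col12a1* at P6 and 14.5 to 16.5 times at P56. Relative to the enzyme, both fibril-associated collagens were thus higher in the infant libraries.

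Together the 5 genes had 856, 849 and 872 TPM in the P6 libraries and 559.9, 533 and 414 TPM in the P56 libraries. Of this sum *Col5a2* made up 51.3 ± 0.394% at P6 and 67.6 ± 0.510% at P56 (SD, n = 3). *Col12a1* made up 8.63 ± 0.505% and 1.49 ± 0.0604%, and *Col16a1* 15.8 ± 0.770% and 8.29 ± 0.380% (SD, n = 3). The share of *Lox* was 24.1 ± 0.641% at P6 and 22.6 ± 0.800% at P56 (SD, n = 3), and its ranges met, with 23.3% in P6 replicate 3 and 23.5% in P56 replicate 3. Reads grow with the length of the transcript as well as with its abundance. *Col12a1*, with an annotated transcript of 11511 bases, took 13.7 ± 0.691% of the reads of the 5 genes at P6 and *Col16a1*, with 5206 bases, took 13.2 ± 0.689% (SD, n = 3), but in P6 replicate 3 *Col16a1* had more reads, 6632 against 6133. At P56 *Col16a1* took more, 7.01 ± 0.318% against 2.43 ± 0.0434% (SD, n = 3).

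**Figure D3:**
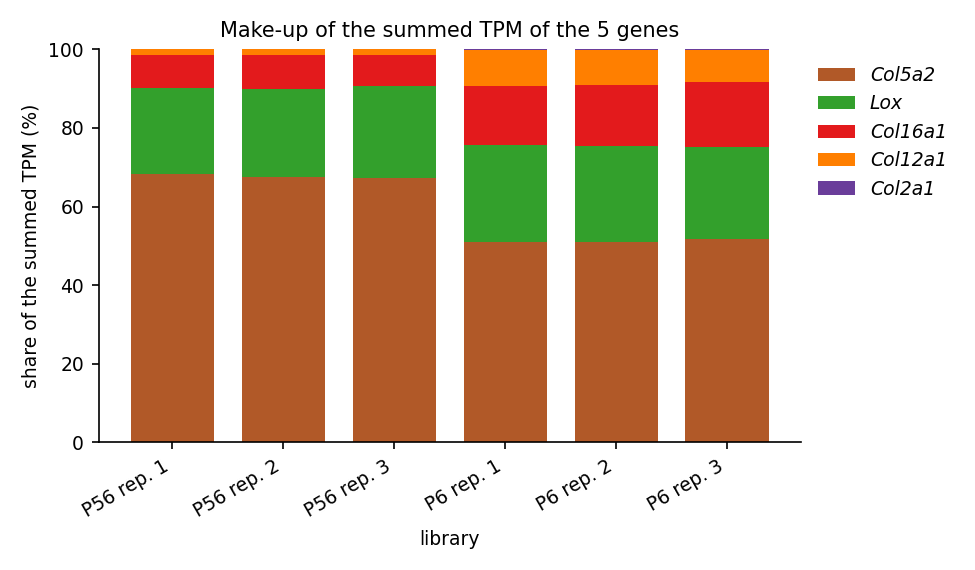
Share of each gene (%) in the summed TPM of the 5 genes (vertical axis) in each library (horizontal axis). *Col5a2* takes 67.2% to 68.2% at P56 and 51.0% to 51.7% at P6, the shares of *Col16a1* and *Col12a1* are larger at P6, and *Col2a1* is too small to see.

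The size of each difference depended on the scale. With equal library sizes, under which the deeper P6 libraries read higher, the log2 differences were 0.86 for *Col5a2*, 1.35 for *Lox*, 2.19 for *Col16a1* and 3.77 for *Col12a1*. On log2(TPM + 1), fitted with limma, they were 0.39, 0.87, 1.69 and 3.15, so these 4 genes kept their order. *Col2a1*, first at the recovered depth, was at 1.50 on log2(TPM + 1), below *Col16a1* and *Col12a1*. The median of all tested genes moved as well, from −0.03 at the recovered depth to 0.34 when libraries were taken as equal and to −0.14 on log2(TPM + 1). Relative to that median, *Col5a2* was 0.53, 0.52 and 0.53 higher at P6, *Lox* 1.01 in each, and *Col16a1* 1.85, 1.85 and 1.83. *Col12a1* was 3.44, 3.43 and 3.29 higher.

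**Figure D4:**
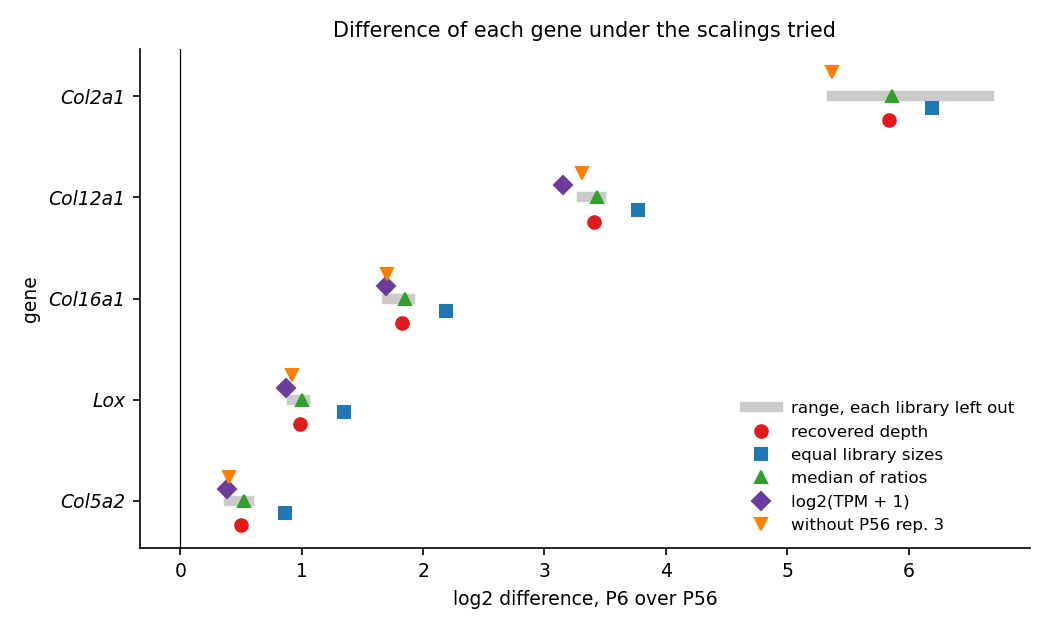
Log2 difference (P6 over P56, horizontal axis) of each gene at the recovered depth, with equal library sizes, with median-of-ratios size factors, on log2(TPM + 1) and without P56 replicate 3, with grey bars that span the values obtained by dropping 1 library at a time. All points lie to the right of 0, and *Col2a1* has no value in limma on log2(TPM + 1), where its mean TPM was below 1.

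Other genes of the collagen pathway were taken from 9 lists, which cover collagens, the lysyl oxidase family, folding and processing, fibril assembly, degradation, receptors and the TGF-beta pathway. Of their 157 genes, 16 were in the table, the 5 described here and 11 others. Of the 11, edgeR called 3 higher and 2 lower at P6 and did not call 6, beside 30.3% higher and 33.9% lower among all tested genes. Their median log2 difference was 0.04 at the recovered depth and that of all tested genes −0.03. Among 45 collagen genes 6 were in the table, so that chains with which these genes assemble, such as *Col1a1*, *Col1a2* and *Col5a1*, could not be set beside them. No other lysyl oxidase and no gene of the folding and processing list was among the 312.

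Fibril assembly partners went both ways. *Thbs1*, which encodes the matricellular protein thrombospondin 1, had 794 ± 20.6 TPM at P6 and 184 ± 29.4 TPM at P56 (SD, n = 3), a log2 difference of 2.23 (edgeR, adjusted *p* = 1.11e-08). *Fmod*, a small proteoglycan that binds collagen fibrils, had 45.9 ± 6.91 and 18.5 ± 1.58 TPM, a log2 difference of 1.43 (edgeR, adjusted *p* = 1.31e-06). *Tnc*, which encodes the glycoprotein tenascin C, was 0.60 higher at P6 on the log2 scale (edgeR, adjusted *p* = 0.000299). *Prelp*, a small proteoglycan that links collagen to basement membrane, was lower at P6, with 198 ± 10.3 against 393 ± 27.2 TPM (SD, n = 3). Its log2 difference was −0.87 (edgeR, adjusted *p* = 2.04e-06). These 4 genes kept their direction and their call under each scaling tried and without P56 replicate 3.

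Both other collagens of the table differed from the 5 genes in direction or size. *Col6a3*, a chain of the microfibrils of type VI collagen, had 609 ± 17.6 TPM at P6 and 639 ± 132 TPM at P56 (SD, n = 3). Its log2 difference was 0.07 at the recovered depth, 0.42 with equal library sizes, where it was called, and −0.05 on log2(TPM + 1). *Col4a5*, a chain of the basement membrane collagen type IV, had 6.73 ± 0.0400 TPM at P6 and 25.7 ± 4.64 TPM at P56 (SD, n = 3), a log2 difference of −1.81 (edgeR, adjusted *p* = 2.67e-07).

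The collagen receptors *Itga1* and *Ddr1* missed the threshold at the recovered depth, with log2 differences of −0.04 and 0.10. With equal library sizes *Ddr1* was called (0.47) and *Itga1* was not (0.32). In the TGF-beta list *Ctgf*, *Cyr61* and *Ltbp1* had log2 differences of −0.04, −0.06 and 0.04 at the recovered depth, where none was called. With equal library sizes *Ltbp1* was called (0.40).

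**Figure D5:**
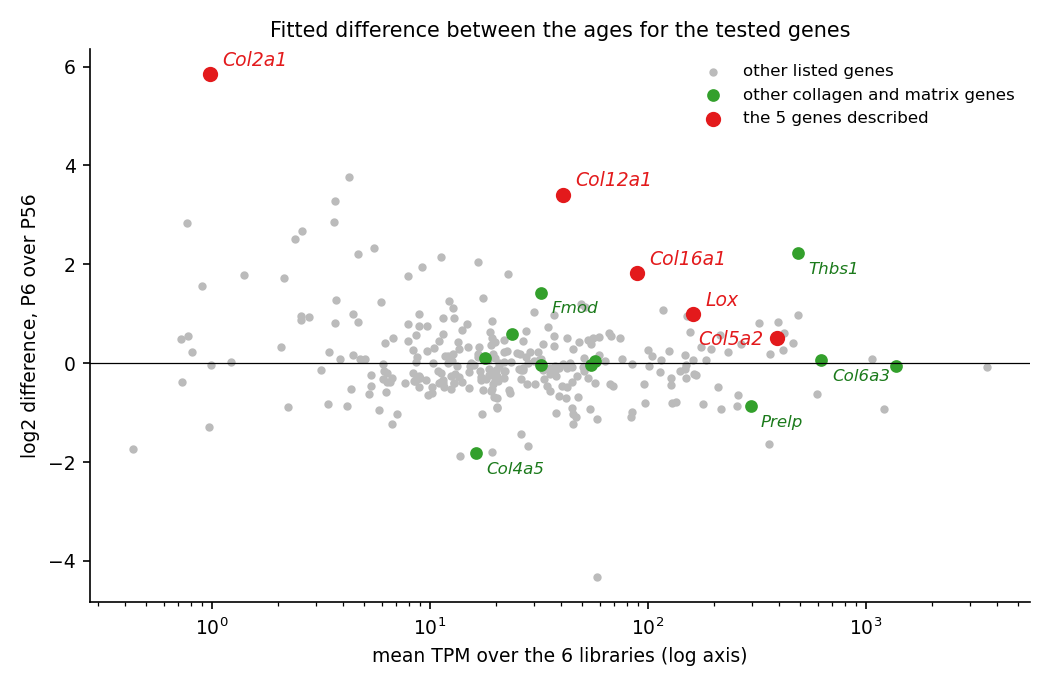
Fitted log2 difference at the recovered depth (P6 over P56, vertical axis) against the mean TPM over 6 libraries (log axis) for the 310 tested genes, with the 5 genes described here in red and the 11 other collagen and matrix genes in green. *Col2a1* lies at the low end of the TPM range, and *Thbs1* lies at 2.23 with a mean TPM above that of *Col5a2*.

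Marker genes of other cells moved with the age as well. Of 12 smooth muscle and pericyte markers 7 were in the table, with a summed TPM of 1053 to 1439 at P6 and 776 to 888 at P56, and 4 of the 7 were called higher at P6, *Acta2*, *Cnn1*, *Mcam* and *Tagln*, beside 30.3% of all tested genes. On log2(TPM + 1) *Tagln* was not called, which left 3. With equal library sizes 6 were called, with *Smtn* (0.53) and *Cspg4* (0.62) added, and with TMM or median-of-ratios factors 5, with *Smtn* added. Without P56 replicate 3 it was also 5, with *Cspg4* added. *Lmod1* went the other way at the recovered depth, with a log2 difference of −0.23, and was not called. Among the P6 libraries, replicate 1 had the most *Acta2* (608 TPM against 405 and 453) and *Tagln* (369 against 246 and 266). It also had the most *Cnn1* (35.14 TPM against 20.65 and 23.35). The *Tagln* ranges of the ages overlapped, with 262 TPM in P56 replicate 3. Of 11 skeletal muscle markers 2 were in the table, *Acta1* and *Neb*, with a summed TPM of 151 to 173 at P6 and 542 to 562 at P56. Both were called lower at P6, beside 33.9% of all tested genes. The sum is almost all *Acta1*, since *Neb* had a mean of 0.187 TPM at P6 and 0.683 TPM at P56. Limma on log2(TPM + 1) left *Neb* out. None of 21 macrophage, 14 fibroblast and preadipocyte, 12 adipocyte or 7 endothelial markers was among the 312 genes, so the labelled cell type could not be checked. The part of a different mix of cells in the values of the 5 genes was not tested.

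The genes whose pattern was most like each of these were sought by Pearson's *r* of log2(TPM + 1) over the 6 libraries, among genes with a mean of at least 1 TPM. Since the 6 points fall into the 2 ages, *r* mostly reflects the difference between them. For *Col12a1* they were *Thbs1* (*r* = 0.999), *Tnfrsf11b* (0.998), a decoy receptor for the bone regulator RANKL, and *Wisp1* (0.998). For *Col16a1* they were the sphingosine 1-phosphate receptor *S1pr3* (0.997), *Lox* (0.995) and *Tnfrsf11b* (0.995). For *Lox* they were *Samd4* (0.998), *Dpysl3* (0.997) and the basement membrane gene *Nid2* (0.996). For *Col5a2* they were the growth factor gene *Bmp2* (0.994), *Sulf1* (0.977) and *Myh10* (0.976), and for *Col2a1* the forkhead factor gene *Foxc2* (0.997), *Anln* (0.995) and *Ddah1* (0.994). Of 299 genes compared, 61 reached an *r* over 0.9 with *Lox*, 55 with *Col16a1*, 54 with *Col12a1* and 29 with *Col5a2*. For *Col2a1* it was 51 of 300. In the whole table, 84 of 312 genes (26.9%) had all P6 TPM values above all P56 TPM values. Among the 5 genes themselves *r* ran from 0.824 between *Col5a2* and *Col2a1* to 0.995 between *Lox* and *Col16a1*.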

How the data were processed

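Per the labels, total RNA was extracted with TRIZOL and mRNA was captured on oligo(dT) beads. HISAT, Bowtie2, RSEM and DESeq2 are named in the submitters' processing notes, with no versions and no genome build. For 312 genes, which the table's name calls differentially expressed without giving the rule, the authors deposited TPM and FPKM beside estimated counts that were not normalized. Counts of 23 genes were fractional, none of them among the 5 described. The authors' own comparison of the ages (log2 ratio, p-value and q-value, 3 columns) was not used.

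Libraries were grouped by the age in their titles. Counts were rounded and fitted with edgeR 4.0.16 in R 4.3.3 (quasi-likelihood test, Benjamini-Hochberg adjustment over the 310 genes whose mean count reached 10). The library size in the fit was the depth recovered from count over FPKM, as the median over the genes whose FPKM exceeded 5 throughout. Standard errors were taken from the log2 difference and the F statistic, and the fit was checked on simulated data. Limma 3.58.1 was run on log2(TPM + 1) and DESeq2 1.42.0 on the counts. The genes named are the 5 described, the listed members of the pathway and marker lists, and for each of the 5 the 3 most alike. A gene of the pathway lists is not reported here and is not in their counts. The 5 genes and the lists were chosen with earlier results of these data known. Depth limits *Col2a1* most, with 3 reads at P56. For 3 libraries against 3, a two-sided exact permutation test of a single gene could not go below 0.1, so none was run.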

Additional observations from a re-analysis of the deposited data

How the results depend on the processing

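The 5 genes kept a positive log2 difference in all 78 values computed under 16 alternatives. The choice of the genes fixed this direction, so it is no sign of robustness. By less than 1 SD moved 70 of the 78, where SD is that of a difference between single P6 and P56 libraries on the log2 scale. For *Col2a1* this SD was 1.27. Limma and the difference of means on log2(TPM + 1) gave the same values where both had one, so the 78 are not all separate. Equal library sizes moved *Col5a2* to 0.86, *Lox* to 1.35, *Col16a1* to 2.19 and *Col12a1* to 3.77, by their own construction, since the depth of the P6 libraries stays in the values. On log2(TPM + 1), by limma or as a difference of means, *Col12a1* was at 3.15. The difference of mean log2(TPM + 1) was 1.50 for *Col2a1* and that of log2(TPM + 0.1) was 3.94, as a pseudocount compresses low values. *Col2a1* had no value in limma or under a filter of 50 counts, which left it out. A log2 difference of at least 1 in size left 50 of the 199 genes called. With the replicate number as a block (replicate block) 213 genes were called, and the 5 genes moved by less than 1 SD. The deviations of same-numbered libraries had correlations of 0.097, 0.131 and 0.239 across 310 genes, and the libraries were therefore not paired. With each library left out the number called was 172 to 221. Of the 11 other pathway genes 5 were called, and equal library sizes called 8. Depth limits *Col2a1* at P56, where 3 reads in all were counted.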
